A study of Rattus norvegicus with 6 samples.

Results

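The 9 genes described here are markers of liver sinusoidal endothelial cells: Stab1, Stab2, Clec4g, Lyve1, Kdr, Pecam1, Oit3, Fcgr2b and Gpr182. They were chosen by name, each had 1 row among the 32930 genes of the deposited table, and all 9 were among the 18455 genes that passed the expression filter. Whole liver RNA was sequenced from 3 animals of the HFD group, on a high-fat diet with the vehicle 0.5% CMC-Na, and from 3 animals of the HTG group, on the same diet with the herbal granule HTG (Huazhuo Tiaozhi granule). The series design gives 12 weeks of intervention, and the treatment label of the HTG libraries spells the agent HCG. The study's methods name C57BL/6 J mice for this experiment and the labels name rats, while the gene rows carry mouse Ensembl identifiers and were read as mouse genes. The age of the animals is not given in the sources used here. Every animal received the high-fat diet, so no comparison with a normal diet is made. The question was whether markers of the sinusoidal lining differed between HTG-treated and untreated fatty livers.

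Liver sinusoids are lined by a thin, fenestrated endothelium without a continuous basement membrane. These cells are the scavengers of the liver: they take up hyaluronan, modified lipoproteins, collagen fragments and small immune complexes from the blood by receptor-mediated endocytosis. They also send angiocrine signals, among them Wnt and BMP ligands, to the neighbouring hepatocytes, and they depend on vascular endothelial growth factor (VEGF) from those hepatocytes. In chronic liver injury the lining can lose its fenestrae and take on features of continuous capillaries, a process known as capillarisation.

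The estimated counts summed to between 50648778 and 90563477 per library, or 12662194 to 22640869 fragments at about 4 counts each, and the 9 genes together took between 0.00917% and 0.0284% of them. The least covered value was Lyve1 in HFD library 2, with 61 counts or about 15.2 fragments. For a gene without any read the expected level could be up to 12 counts, the equivalent of 3 fragments. HFD library 2 stood apart for these genes. It had the lowest CPM (counts scaled to library size by TMM) of all 6 libraries in 9 of 9 markers, against 20.7% of all genes tested, so the fitted values are also given without it. Since this is bulk liver RNA, fewer sinusoidal cells and less RNA per cell cannot be told apart. The labelled tissue was checked by Alb, whose CPM lay between 53506 and 74503.

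Per transcript length, the markers spanned about 1 order of magnitude. The FPKM values (fragments scaled for transcript length and library depth) of Clec4g, a C-type lectin of the sinusoidal surface, lay between 3.45 and 15.1 over the 6 libraries, with a mean of 9.78, and Clec4g was the highest of the 9 in every library. Stab1, Fcgr2b and Stab2 followed, with mean FPKM of 4.82, 4.79 and 4.45. These 3 did not differ beyond their spread, since Stab1 exceeded Fcgr2b in 4 of 6 libraries and Fcgr2b exceeded Stab2 in 3 of 6. Gpr182 (mean FPKM 3.37) and Oit3 (2.77) came next, with Gpr182 above Oit3 in 4 libraries. Kdr and Pecam1 had mean FPKM of 1.38 and 1.37 and traded places between libraries, Kdr being higher in 4. Lyve1 had the lowest mean, 0.943 FPKM, from 0.28 in HFD library 2 to 1.59 in HFD library 1. The summed FPKM of the 9 markers was 42.5, 14.85 and 29.3 across HFD libraries 1 to 3, and 42.8, 46.5 and 26.1 across HTG libraries 1 to 3. The groups overlapped in this sum, and both HFD library 2 and HTG library 3 were low.

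Stab1, the class H scavenger receptor stabilin-1, was the one marker whose groups did not overlap. Its estimated counts were 3213, 1950 and 2883 across HFD libraries 1 to 3, and 4419, 7889 and 2689 across HTG libraries 1 to 3. After scaling for depth no HFD library reached the lowest HTG library, at 47.2, 29.2 and 40.1 CPM against 56.7, 80.7 and 57.4 CPM. The FPKM values showed the same separation, at 4.59, 2.56 and 3.87 against 5.14, 7.92 and 4.85. Stab1 averaged 38.8 ± 9.03 CPM under HFD and 64.9 ± 13.7 CPM under HTG (SD, n = 3 each), 1.67-fold higher. The log2 fold change was 0.74 (standard error 0.23), with an unadjusted p of 0.0124 and an adjusted p of 0.105 over all genes in edgeR's quasi-likelihood test. Stab1 (ENSMUSG00000042286) is listed on chromosome 14, 30860970 to 30890598, and overlaps Nt5dc2 on the other strand by 112 bases. Stabilin-1 is also made by macrophages, and the macrophage markers are given further on.

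Stab2 encodes stabilin-2, the main clearance receptor for circulating hyaluronan (ENSMUSG00000035459, chromosome 10, 86677062 to 86843889). Its estimated counts were 2713, 1552 and 2640 across HFD libraries 1 to 3, and 3838, 5647 and 1731 across HTG libraries 1 to 3. On the CPM scale HTG library 3, at 37.0, lay between HFD library 3 at 36.8 and HFD library 1 at 39.8, so the groups overlapped. The means were 33.3 ± 8.81 CPM in the HFD group and 48.0 ± 10.5 CPM in the HTG group (SD, n = 3 per group), with a log2 fold change of 0.53 (standard error 0.25, adjusted p = 0.238 in edgeR's quasi-likelihood test). Without HTG library 3 the unadjusted p of Stab2 was 0.0377, against 0.0676 with all libraries (edgeR's quasi-likelihood test). Both stabilins carry the gene ontology terms scavenger receptor activity and low-density lipoprotein particle receptor activity in the authors' table, and no other marker does.

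Lyve1, a hyaluronan receptor shared by lymphatic and sinusoidal endothelium, pointed the other way, with a spread wider than the difference. Its estimated counts were 317, 61 and 311 across HFD libraries 1 to 3, and 254, 202 and 91 across HTG libraries 1 to 3. HFD libraries 1 and 3, at 4.65 and 4.33 CPM, lay above all HTG libraries (1.94 to 3.26 CPM), while HFD library 2, at 0.915 CPM, lay below them. The fitted log2 difference was -0.44 (standard error 0.55, adjusted p = 0.657 in edgeR's quasi-likelihood test), and without HFD library 2 it was -0.89 (unadjusted p = 0.0299, adjusted p = 0.2). Hyaluronic acid binding was annotated to 22 genes of the table, and Stab1, Stab2 and Lyve1 were among them. These 3 genes with that annotation had fitted values of both signs, and the negative one, of Lyve1, was smaller than its standard error.

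Clec4g, also called LSECtin, was counted at 2148, 627 and 1343 across HFD libraries 1 to 3, and 3112, 3029 and 930 across HTG libraries 1 to 3. HFD library 1 (31.5 CPM) lay above HTG library 2 (31.0 CPM) and HTG library 3 (19.9 CPM), so the groups overlapped through that library, while HFD library 3 (18.7 CPM) lay below every HTG library. Its means were 19.9 ± 11.1 and 30.3 ± 10.1 CPM (SD, n = 3 each), and the fitted log2 difference was 0.61 (standard error 0.42, adjusted p = 0.407 in edgeR's quasi-likelihood test). Fcgr2b encodes the inhibitory IgG receptor by which sinusoidal cells clear small immune complexes. Its estimated counts were 2653, 880 and 1608 across HFD libraries 1 to 3, and 2794, 3543 and 1244 across HTG libraries 1 to 3. The highest value on the CPM scale was 38.9, in HFD library 1, and the groups overlapped, with means of 24.8 ± 13.1 and 32.9 ± 5.49 CPM (SD, n = 3 per group). The log2 fold change of Fcgr2b was 0.41 (standard error 0.35, adjusted p = 0.511 in edgeR's quasi-likelihood test), and near-identical stretches of other Fc receptor genes make its counts less certain.

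Kdr encodes VEGF receptor 2, the main signalling receptor for VEGF-A on endothelium. Its estimated counts were 1161, 345 and 993 across HFD libraries 1 to 3, and 1186, 1472 and 520 across HTG libraries 1 to 3. The 3 HTG libraries, from 11.1 to 15.2 CPM, lay inside the HFD range of 5.17 to 17.0 CPM. The log2 fold change of Kdr was 0.20 (standard error 0.39, adjusted p = 0.786 in edgeR's quasi-likelihood test), and it changed sign, to -0.16, without HFD library 2.

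Gpr182, an atypical chemokine receptor of sinusoidal and lymphatic endothelium, was counted at 1144, 387 and 803 across HFD libraries 1 to 3, and 1357, 1950 and 563 across HTG libraries 1 to 3. The CPM values ran from 5.80 to 16.8 in the HFD group and from 12.0 to 19.9 in the HTG group, with HFD library 1 inside the HTG range. The fitted log2 difference was 0.55 (standard error 0.37, adjusted p = 0.392 in edgeR's quasi-likelihood test). Pecam1 (CD31) is an adhesion molecule of endothelial cells in general. It varied least among the 9, with 6.25 to 9.84 CPM in the HFD group and 6.98 to 11.1 CPM in the HTG group, a coefficient of variation of 21.6% over the 6 libraries against 29.1% to 51.3% in the other markers. Pecam1 was counted at 670, 417 and 648 across HFD libraries 1 to 3, and 865, 1014 and 327 across HTG libraries 1 to 3, and the fitted log2 difference was 0.18 (standard error 0.26, adjusted p = 0.702 in edgeR's quasi-likelihood test). Oit3, a zona pellucida domain protein, was counted at 841, 281 and 532 across HFD libraries 1 to 3, and 720, 1008 and 204 across HTG libraries 1 to 3. The groups overlapped throughout, with means of 7.99 ± 4.10 and 7.97 ± 3.18 CPM (SD, n = 3 each). The fitted log2 difference of -0.00051 (standard error 0.44, adjusted p = 0.999 in edgeR's quasi-likelihood test) was the closest to 0 in the list.

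**Figure D1:**
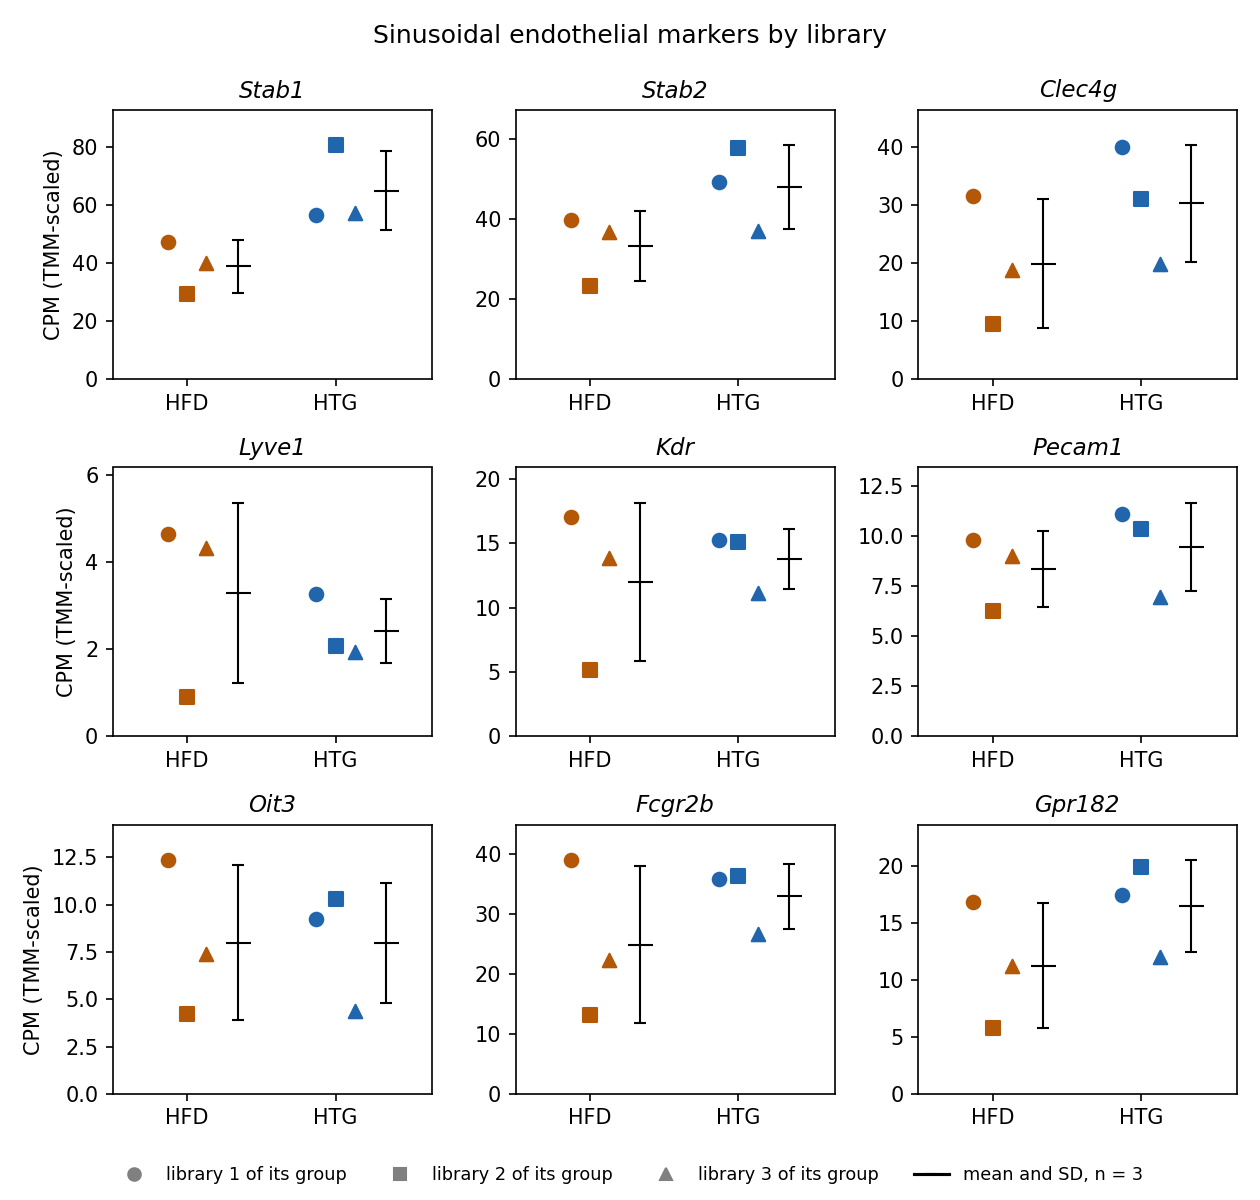
CPM of each marker in the 6 libraries, on linear axes from 0, with circles, squares and triangles for libraries 1, 2 and 3 of each group and bars for the mean and SD (n = 3). The square of the HFD group, HFD library 2, is the lowest point in all 9 panels, and only in Stab1 do the groups not overlap (29.2 to 47.2 CPM against 56.7 to 80.7 CPM).

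In all, 7 of the 9 markers had a positive fitted value in the HTG group, against 51.6% of all genes, and 2 had a negative one. The median log2 fold change was 0.41, beside a median of 0.025 over all genes tested. With the threshold of 0.05 on the adjusted p, edgeR called 0 of the 9 and 0.0108% of all genes, with 1 of the 9 at an unadjusted p under 0.05, and DESeq2 called 0 and 1 of the 9 in the same way. The DESeq2 fit called more of all genes, 14.7% of those with an adjusted p and 16.6% at an unadjusted p under 0.05. At an adjusted p under 0.1 it was 0 of 9, against 10.8% of all genes. An unadjusted p under 0.05 was reached by 1 of 9, Stab1, against 24.7% of all genes, and 12.3% for higher genes alone. Groups that did not overlap in CPM were seen in 1 of 9, against 32.1% of all genes. The share of called markers was thus not above the background under any of these rules. Single libraries weighed on these values. Without HFD library 1, Stab1, Clec4g, Fcgr2b and Gpr182, 4 of 9, had an unadjusted p under 0.05, where 22.3% of all genes had one (edgeR's quasi-likelihood test). Without HFD library 2 these were Stab1 and Lyve1, against 20.3% of all genes, and without HTG library 3 Stab1 and Stab2, against 17.9%. The median was 0.098 without HFD library 2 and 0.67 without HFD library 1. Without HFD library 2 the fitted log2 difference was 0.57 for Stab1, 0.32 for Stab2, 0.27 for Clec4g, 0.23 for Gpr182, 0.098 for Fcgr2b, 0.0069 for Pecam1, -0.16 for Kdr, -0.31 for Oit3 and -0.89 for Lyve1.

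**Figure D2:**
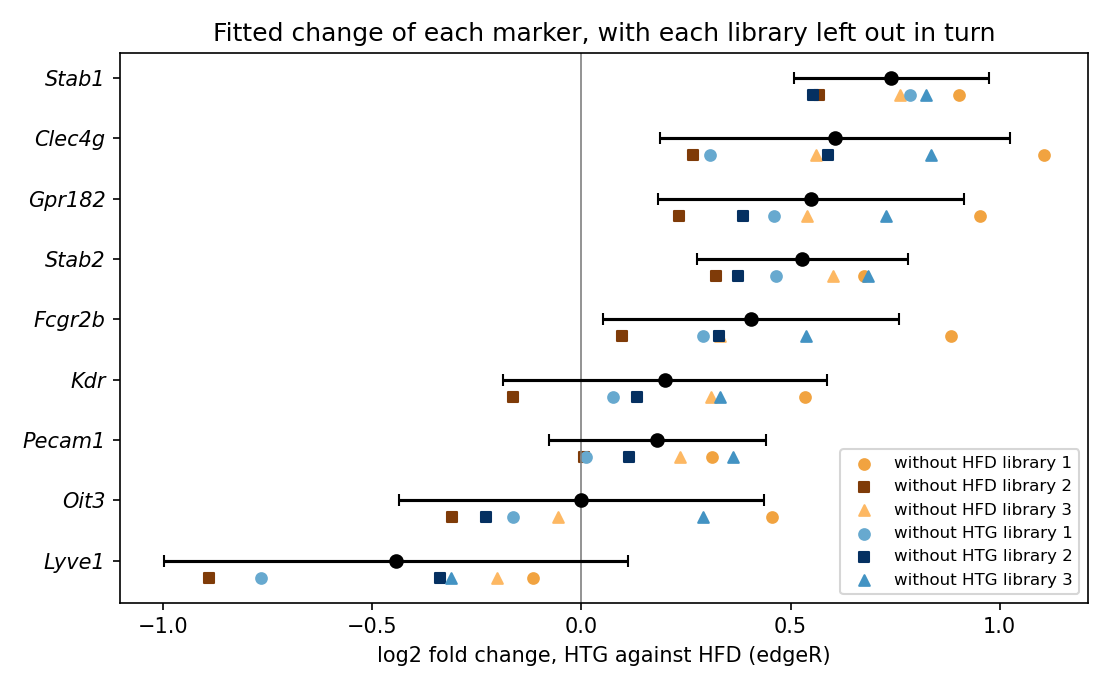
Fitted log2 fold change (HTG against HFD) of each marker, with the standard error as a bar over all 6 libraries (black) and the value with each library left out in turn (coloured points below it). Stab1 stays between 0.55 and 0.90, Kdr turns to -0.16 without HFD library 2, and Oit3 moves between -0.31 and 0.46.

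Only in Stab1 were the groups apart, and the markers had a broadly similar profile over the libraries. In HFD library 2 they were at 28.1% (Lyve1) to 63.6% (Pecam1) of the median of the other 5 libraries. The next lowest library was HFD library 3 for 5 markers (Stab1, Stab2, Clec4g, Fcgr2b, Gpr182) and HTG library 3 for the other 4. The highest was HFD library 1 in 4 markers, HTG library 2 in 3 and HTG library 1 in 2. Among 10017 genes with a mean of at least 5 CPM, those most like the mean standardised profile of the 9 over the 6 libraries were Plcb2, Themis2, Plxnc1, Rbm43, Ptprb, Trmt10a, Stard9 and Cmtm3, with Pearson's r of 0.996 to 0.976. This ranking was picked from all these genes over 6 libraries that share the low HFD library 2, and is a description only. The markers are part of the mean profile, and their own r ran from 0.785 (Stab1) and 0.878 (Oit3) up to 0.985 (Gpr182). Lyve1, at a mean of 2.86 CPM, was under the limit of 5 CPM and has no r. Of the 8 genes named by likeness, Plxnc1, a semaphorin receptor, and Ptprb, the vascular endothelial phosphatase VE-PTP, are on a list of other sinusoidal genes. The others, with Plcb2 (r = 0.996) and Themis2 (r = 0.991) at the top, are on none of the gene lists described below. Ptprb had 23.1, 8.19 and 15.8 CPM across HFD libraries 1 to 3, and 20.6, 24.3 and 12.6 CPM across HTG libraries 1 to 3, again with HFD library 2 lowest. In the authors' table all 9 markers are listed on the minus strand, as are 49.6% of its genes, and Stab2, Oit3 and Gpr182 lie on chromosome 10, as do 4.85% of its genes. The table lists Oit3 (ENSMUSG00000009654) at 59258780 to 59277600 and Gpr182 (ENSMUSG00000058396) at 127583145 to 127587601 on that chromosome, the latter overlapping Zbtb39 on the other strand by 74 bases. Clec4g (ENSMUSG00000074491) is on chromosome 8 at 3757064 to 3768653 and overlaps the opposite-strand gene Gm16553, which had 11 to 47 counts, by 8850 bases. Lyve1 (ENSMUSG00000030787) is on chromosome 7 at 110449814 to 110462446 and Kdr (ENSMUSG00000062960) on chromosome 5 at 76093487 to 76139118. Pecam1 (ENSMUSG00000020717) is on chromosome 11 at 106545043 to 106641454 and Fcgr2b (ENSMUSG00000026656) on chromosome 1 at 170786186 to 170804116. By annotation 8 of the 9 are integral components of the membrane, all but Oit3.

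As a share of the summed FPKM of the 9, the groups overlapped for 8 of the 9 markers. Clec4g made up 26.4% ± 3.54 of it in the HFD group and 29.9% ± 4.80 in the HTG group, and Fcgr2b 14.3% ± 1.42 and 14.1% ± 0.985 (SD, n = 3 per group). Oit3 was the exception, at 10.4%, 9.16% and 9.02% across HFD libraries 1 to 3, and 7.23%, 8.01% and 5.21% across HTG libraries 1 to 3. No HTG library reached the lowest HFD share. Any separation of this kind gives p = 0.1 in a two-sided exact permutation test, the smallest that 3 libraries against 3 allow. The p thus adds nothing to the lack of overlap. Oit3 was 1 of 9 shares tested in this way, without correction for their number, and no background over all genes was computed for such shares. The FPKM of Oit3 itself averaged 2.81 in the HFD group and 2.73 in the HTG group, beside a summed FPKM of 28.9 and 38.5.

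Other endothelial genes are given next, for context. Of 20 further sinusoidal genes 18 were tested, and the unadjusted p was under 0.05 for 1 higher and for 1 lower gene, where 12.3% and 12.4% of all genes were (median log2 fold change 0.20, with -0.039 without HFD library 2 and 0.60 without HFD library 1). The DNase Dnase1l3 had a log2 fold change of 0.19 (adjusted p = 0.798), and the mannose receptor Mrc1 one of -0.16 (adjusted p = 0.767, both in edgeR's quasi-likelihood test). Ushbp1 was higher, at 25.8 ± 8.42 against 14.2 ± 4.18 CPM (SD, n = 3 per group), and Plpp3, a lipid phosphate phosphatase also made by other cells, was lower, at 50.1 ± 9.46 against 93.7 ± 12.5 CPM. Their adjusted p-values were 0.123 and 0.0612 in edgeR's quasi-likelihood test. Among the further sinusoidal genes, the number higher at an unadjusted p under 0.05 ran from 0 without HTG library 2 to 3 without HFD library 1. Of 18 genes expressed by endothelium in general, 15 had positive fitted values, against 51.6% of all genes. Their median log2 fold change was 0.43, 0.78 without HFD library 1 and 0.25 without HFD library 2, which was the lowest library in 13. Egfl7, a secreted endothelial factor (log2 fold change 0.84, adjusted p = 0.0973), and Robo4, a guidance receptor of vessels (0.86, adjusted p = 0.151), were higher at an unadjusted p under 0.05 (edgeR's quasi-likelihood test). They were 2 of 18, where 12.3% of all genes were higher by this rule. VE-cadherin (Cdh5) had a fitted value of -0.43 (adjusted p = 0.488 in edgeR's quasi-likelihood test). Relative to the summed FPKM of these 18 genes, 8 of the 9 markers overlapped between the groups. Pecam1 did not, at -4.55 ± 0.108 in the HFD group and -4.78 ± 0.128 in the HTG group on the log2 ratio scale (SD, n = 3 per group). That gives p = 0.1 in a two-sided exact permutation test, the smallest that 3 libraries against 3 allow. It was 1 of 9 ratios tested in this way, without correction for their number. Here too the p adds nothing to the lack of overlap, and no background over all genes was computed. The FPKM of Pecam1 itself averaged 1.30 (HFD) and 1.44 (HTG), beside 30.9 and 39.8 for the sum of the 18 genes.

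Genes of continuous or venous endothelium, which rise when sinusoids capillarise, had a median log2 fold change of -0.28 over 13 tested genes, and 2 lower genes had an unadjusted p under 0.05, against 12.4% of all genes. This median ran from -0.55 without HTG library 1 to -0.11 without HFD library 3 and was -0.48 without HFD library 2, which left 1 gene called. The adhesion receptor Vcam1 was at 58.5, 42.02 and 42.4 CPM across HFD libraries 1 to 3, and at 38.5, 17.6 and 15.3 CPM across HTG libraries 1 to 3, without overlap (log2 fold change -1.001, adjusted p = 0.127). Cav1, the caveolar coat protein, had a log2 fold change of -1.18 (adjusted p = 0.146, both in edgeR's quasi-likelihood test). Cd34, Vwf and Plvap had log2 fold changes of -0.89, 0.062 and -0.078, none with an unadjusted p under 0.05. Of 5 lymphatic genes 3 were tested, and Pdpn and Ccl21a did not pass the filter. Prox1, which hepatocytes also express, had a log2 fold change of 0.31, and Reln, also a stellate cell gene, one of -0.70 (adjusted p = 0.395 and 0.0935 in edgeR's quasi-likelihood test).

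The ligands and partners of the receptors were taken from lists of their pathways. Vegfa, the ligand of Kdr, had 145, 119 and 164 CPM across HFD libraries 1 to 3, and 208, 346 and 411 CPM across HTG libraries 1 to 3. No HFD library reached the lowest HTG library, and 32.1% of all genes likewise had groups that did not overlap. Vegfa had a log2 fold change of 1.17 (standard error 0.28, adjusted p = 0.064 in edgeR's quasi-likelihood test). It was the 1 gene of 16 tested in the VEGF and angiopoietin list with an unadjusted p under 0.05, against 24.7% of all genes. The list had a median log2 fold change of 0.36, or 0.18 without HTG library 2. The related receptors Flt1 and Flt4 had fitted values of 0.56 and 0.73, and the angiopoietin receptor Tek 0.58 (adjusted p from 0.289 to 0.434 in edgeR's quasi-likelihood test). These receptors were named after their values were seen. In the whole list 11 genes had positive and 5 had negative fitted values, from -0.68 to 1.17. Vegfb had 0.034 and Vegfc 0.50, without an unadjusted p under 0.05.

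For the hyaluronan ligand of Stab2 and Lyve1, 9 of 14 turnover genes were tested (median log2 fold change -0.37, and -0.18 without HFD library 2). The synthases Has1 and Has2 did not exceed 12 counts, the limit set for an unread gene, in any of the 6 libraries. The hyaluronidase Cemip2 was higher (log2 fold change 0.70, adjusted p = 0.119), and the hyaluronan receptor Cd44 was lower (-0.37, adjusted p = 0.201), each at an unadjusted p under 0.05 in edgeR's quasi-likelihood test. Among 9 tested Fc receptor genes and their signalling partners the median was -0.42. It was -0.28 without HFD library 2, -0.12 without HFD library 1 and -0.036 without HTG library 3. The common gamma chain Fcer1g was higher (0.56, adjusted p = 0.136) and the kinase Lyn lower (-0.42, adjusted p = 0.194, both in edgeR's quasi-likelihood test). At an unadjusted p under 0.05, 0 genes of this list were higher without HFD library 2, HFD library 3, HTG library 1 or HTG library 2. By the same rule 0 were lower without HFD library 1 or HTG library 3. The activating receptors Fcgr1, Fcgr3 and Fcgr4 had fitted values of 0.15, -0.46 and -0.44, without an unadjusted p under 0.05.

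Genes of the endocytic and lysosomal route that scavenger receptors use were mostly lower in the HTG group. Of 15 tested, 8 lower genes and 1 higher gene had an unadjusted p under 0.05, where 12.4% and 12.3% of all genes were, and the median log2 fold change was -0.51. With 1 library left out the number of lower genes was 4 without HTG library 2, 5 without HTG library 3 and 7 to 9 otherwise. Most of these 15 genes are expressed broadly in liver cells, and in bulk RNA no value of the list can be assigned to the endothelium. Clathrin heavy chain (Cltc) was at 94.1, 133 and 158 CPM across HFD libraries 1 to 3, and at 67.4, 39.0 and 58.4 CPM across HTG libraries 1 to 3. The groups did not overlap, and its log2 fold change was -1.22 (adjusted p = 0.0612 in edgeR's quasi-likelihood test). Clta, another clathrin chain, and the lysosomal membrane proteins Lamp1 and Lamp2 had log2 fold changes of -0.87, -1.12 and -0.78. The adaptor Dab2 was the gene with a higher value, from 6.93 ± 2.11 to 11.4 ± 2.34 CPM (SD, n = 3 each), and the fitted log2 difference was 0.72 (adjusted p = 0.164 in edgeR's quasi-likelihood test).

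**Figure D3:**
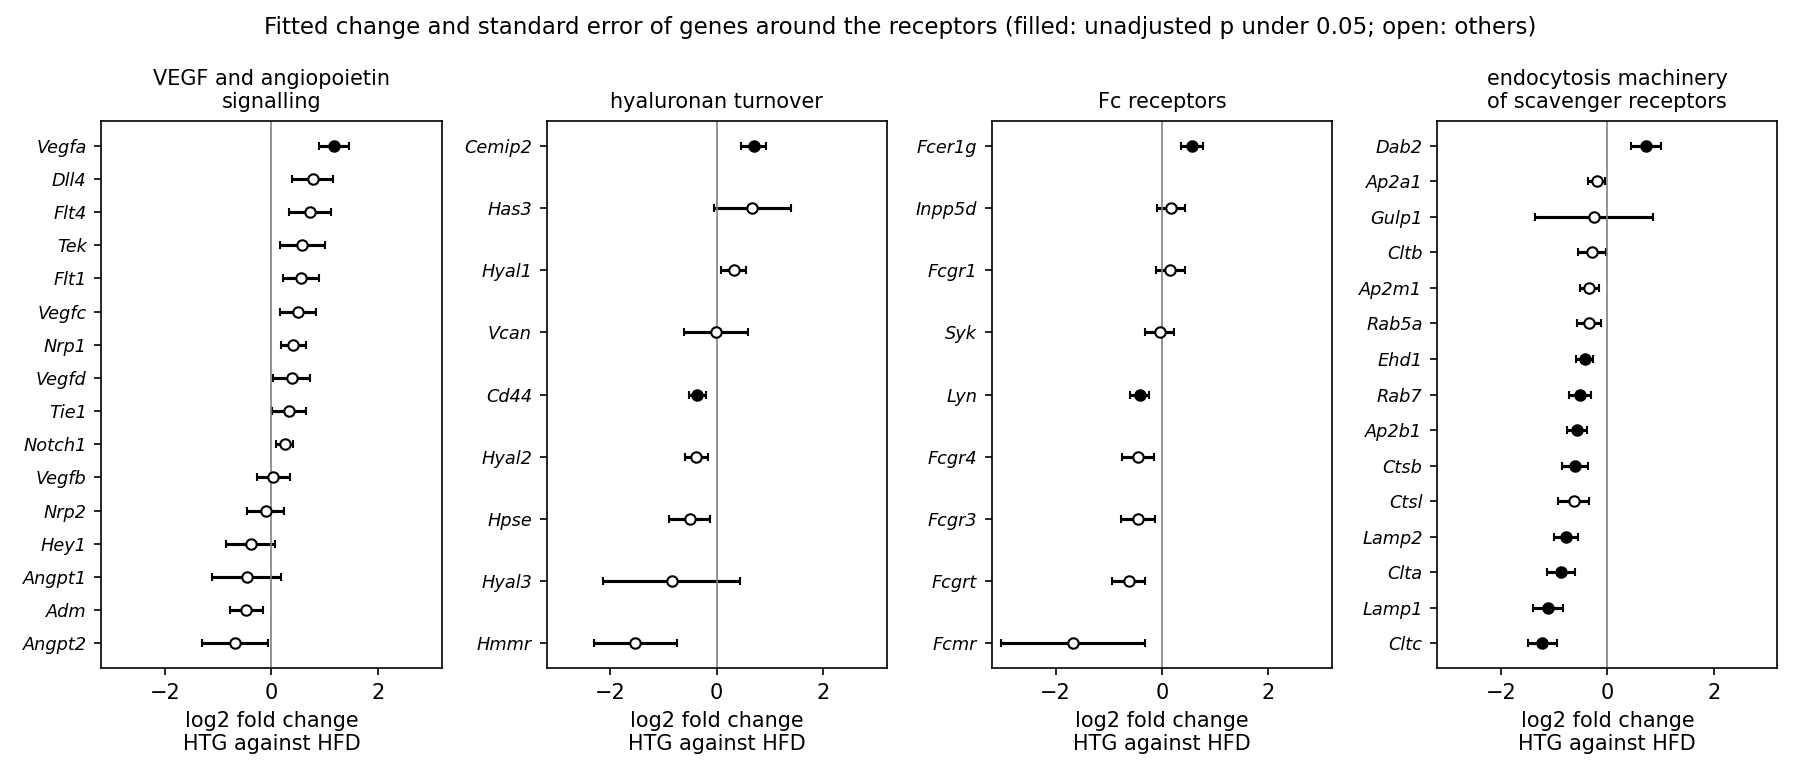
Fitted log2 fold change (HTG against HFD, dots, with the standard error as a bar) of the tested genes of 4 lists around the receptors; filled dots have an unadjusted p under 0.05 in edgeR's quasi-likelihood test. Vegfa lies at 1.17 above its receptors, and 14 of the 15 genes of the endocytic route lie below 0, with Dab2 at 0.72.

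Of the signals that the endothelium sends to hepatocytes, 10 were tested, with a median log2 fold change of 0.028 (-0.17 without HTG library 1, 0.32 without HFD library 1) and 1 lower at an unadjusted p under 0.05, Angptl2 (-0.70, adjusted p = 0.0973 in edgeR's quasi-likelihood test). The Wnt ligands Wnt2 and Wnt9b and the Wnt enhancer Rspo3, which set the pericentral zone, had log2 fold changes of 0.016, 0.22 and 0.35 at 0.41 to 2.79 CPM. The groups overlapped for all 3. Bmp2 had 7.44, 2.80 and 3.75 CPM across HFD libraries 1 to 3, and 7.07, 8.32 and 5.12 CPM across HTG libraries 1 to 3. Of 20 genes that respond to such signals in liver, 3 higher and 5 lower genes had an unadjusted p under 0.05, against 12.3% and 12.4% of all genes, and the number of higher genes ran from 1 to 6 with 1 library left out (6 without HFD library 2). The lower genes were glutamine synthetase (Glul, -0.99), Cyp1a2 (-1.13), Oat (-1.11), Rhbg (-1.05) and Slc1a2 (-0.98), with adjusted p-values from 0.062 to 0.103 in edgeR's quasi-likelihood test. Other Wnt targets of the list, Axin2 and Lgr5, had -0.40 and 0.12 (adjusted p = 0.386 and 0.878 in edgeR's quasi-likelihood test). The higher genes were Hamp (hepcidin, 2.18), Hamp2 (1.13) and Id2 (0.92), and Hamp varied from 22.0 to 509 CPM within the HFD group.

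Markers of other liver cells were set beside these values. Of 13 Kupffer cell and macrophage markers 12 had negative fitted values, 3 of them at an unadjusted p under 0.05 (Adgre1, Cd5l and Lyz2), against 12.4% of all genes, and the median log2 fold change was -0.43. It was -0.65 without HFD library 2, with 5 markers called, and -0.14 without HTG library 3, with 1 called. Their summed FPKM was 617 to 1164 in the HFD group and 417 to 822 in the HTG group. Adgre1 (F4/80) was at 22.1 ± 5.42 CPM under HFD and 7.64 ± 2.09 CPM under HTG (SD, n = 3 each). Its log2 fold change of -1.53 was the lowest of the 13, which ran up to 0.22, and Clec4f had -0.083. HFD library 2 was the lowest library in 3 of these 13 markers and HTG library 3 in 9. The 13 stellate cell markers had a median of -0.27 (-0.47 without HFD library 2, -0.10 without HFD library 3), with Des higher (0.68) and Reln lower at an unadjusted p under 0.05. By this rule 5 were lower and 0 higher without HFD library 2, against 20.3% of all genes in either direction. The number of higher genes was 2 without HFD library 1 and 0 with any other library left out. The summed FPKM of the 13 was 38.7 to 59.1 in the HFD group and 33.2 to 48.8 in the HTG group. The 11 tested leukocyte markers had a median of 0.081 (-0.046 without HFD library 3, 0.31 without HFD library 1), none with an unadjusted p under 0.05, and the B cell genes Cd79a and Cd79b reached at most 1.504 and 1.12 CPM in any library. The 7 cholangiocyte markers (median 0.063, Sox9 higher and Epcam lower) and the 5 red cell genes (median -0.14, Alas2 lower) went both ways, and their medians ran from -0.12 to 0.26 and from -0.38 to 0.28 with 1 library left out. Without HFD library 2, 0 genes of either list were lower at an unadjusted p under 0.05. The 10 hepatocyte markers had a median of -0.45 (-0.28 without HTG library 2), with Apoa1 higher and Apob and Tat lower, and HFD library 2 was the lowest library in 0 of them. The mitochondrial chromosome took 4.97% to 6.45% of the counts in the HFD group and 9.31% to 15.2% in the HTG group, and without its rows Stab1 had a log2 fold change of 0.74. The part of these other cells in the marker values was not tested.

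**Figure D4:**
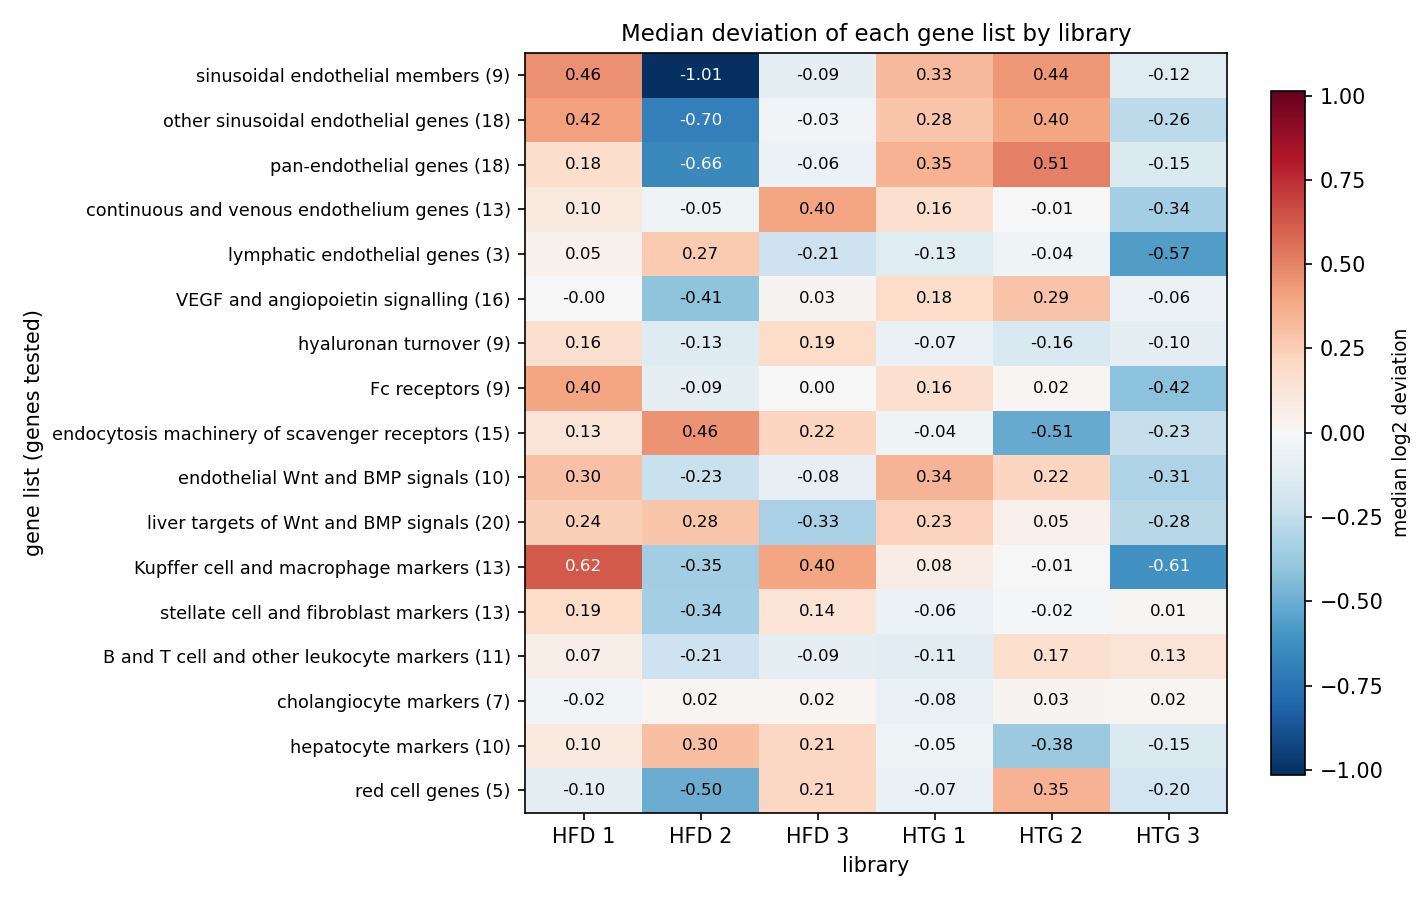
Median over the tested genes of each list (rows, number of genes in brackets) of the log2(CPM + 0.5) deviation from the gene's mean over the 6 libraries (columns). The sinusoidal markers are at -1.01 in HFD library 2, next to -0.70 and -0.66 for the other sinusoidal and the general endothelial genes, 0.30 for hepatocyte markers and -0.35 for Kupffer cell markers.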

How the data were processed

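Per the file header, the authors deposited for each library an estimated count per gene, rounded to whole numbers and not normalised, and an FPKM value. The submitters' processing notes name HISAT2, StringTie and SAMtools without versions and the rat build mRatBN7.2, while the rows are mouse Ensembl genes. Coordinates are therefore given as listed, without a build, and no sequence of the rat reference is shown. Libraries were poly(A)-selected and strand-marked, and whether counting used the strand is not given in the sources used here. Libraries were grouped by their titles, and the design names separate animals. Low counts peaked at multiples of 4 (6450 values of 4 and 1757 of 5, 3333 of 8 and 1170 of 9), so 1 fragment was read as 4 counts. Values of 1, 2 and 3 also occurred (5104, 4229 and 2549 times), so this reading and the fragment numbers drawn from it are approximate.

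The estimated counts were fitted with edgeR 4.0.16 (TMM, filterByExpr, glmQLFit, glmQLFTest, group as the only term) in R 4.3.3, and p-values were adjusted over all genes tested by the Benjamini-Hochberg method. The standard error is the log2 fold change divided by the root of the F statistic. The fits were tested on simulated data with 200 changed genes. Alternatives were DESeq2 1.42.0, 2 filters, 3 scalings, counts divided by 4, the replicate number as a block, limma 3.58.1 on log2(FPKM + 0.1) and log2(FPKM + 1) above a minimum mean of 1 FPKM, limma on log2(FPKM + 0.1) without that minimum, and leaving out each library. The members, the 16 other gene lists and the tests were chosen with earlier results of these data known, and 6 genes stand in 2 lists. From each list the first 3 genes and up to 4 per direction with the largest change at an unadjusted p under 0.05 could be named, with 8 genes by likeness of profile. Tek, Flt1, Flt4, Bmp2 and Slc1a2 were named outside this rule, after their values were seen. No set test was run. Counts of overlapping and near-identical genes are uncertain. Limits of empty genes cover counting error only.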

Additional observations from a re-analysis of the deposited data

How the results depend on the processing

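Of the 17 alternative fits, 0 put a marker under an adjusted p of 0.05, and Stab1 had a positive value and an unadjusted p under 0.05 in all 17 (0.00795 to 0.0499, adjusted p from 0.0526 to 0.309). Over all genes the number with an adjusted p under 0.05 depended on the tool and filter, from 0 to 2171 (DESeq2) against 2 in the edgeR fit. With 1 library left out, the number of markers with an unadjusted p under 0.05 ran from 1 to 4, and their median log2 fold change from 0.098 to 0.67. The median stayed positive in all 17. The summed FPKM of the markers, as a log2 ratio of group means, was 0.41, 0.52 for library totals without the mitochondrial chromosome, and 0.10 to 0.80 with 1 library left out. Oit3, at -0.00051, had the opposite sign with at least 10 counts in every library (0.0092), upper-quartile scaling (0.026), counts divided by 4 (0.025), the replicate block (0.020), without HFD library 1 (0.46) and without HTG library 3 (0.29). Over the 6 fits with 1 library left out, Oit3 ran from -0.31 to 0.46 and Kdr from -0.16 (without HFD library 2) to 0.54. Lyve1 was under the FPKM minimum of 1 and has no value in 2 of the limma fits. With the replicate number as a block, 0 markers had an adjusted p under 0.05, 1 had an unadjusted p under 0.05, and the median was 0.52. Same-numbered libraries had deviations that correlated with r of -0.13, -0.11 and 0.19 across genes, and differently numbered ones with r from -0.19 to 0.29. Whether same-numbered libraries share more than a number was not tested. The lowest marker value, Lyve1 in HFD library 2, rests on 61 counts.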
